A study of Mus musculus with 59 samples.

Results

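Cholesterol synthesis, uptake and export genes were followed in livers of mice with altered E2f genes. The genes are the enzymes that build cholesterol, the proteins that sense it and set the rate of synthesis, and the proteins that free it in lysosomes after uptake, move it inside the cell or send it out. They were taken from a list of 32 symbols, and 29 were found on the array by a probe set annotated to exactly 1 symbol, among 18194 genes so found. Acat2, Soat1 and Soat2 were not found in this way and are not analysed here. Where a gene had several probe sets, the brightest on average stood for it.

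The livers came from 4-week-old mice of mixed origin, with FVB/NT, 129S1/Svlmj and also C57BL/6NT in their background, and RNA of each was hybridized to an Affymetrix array. The groups were E2F1 knock-in (1KI, 10 arrays), E2f3b knock-in (3bKI, 5 arrays), E2f3a knock-out (3aKO, 10 arrays) and wildtype (wt, 12 arrays). E2f3a and E2f3b are the isoforms of the transcription factor E2F3, and E2F1 is a related factor. The locus that received each knock-in, whether the knock-in mice also lack E2f3a, and whether each array is a separate animal are not stated in the labels. The p-values therefore measure only how far these arrays spread, which may be technical. The authors deposited log2 values in 2 normalizations: the first holds 1KI, 3aKO and wt, and the second holds 3bKI with the same 3aKO and wt arrays normalized anew. 1KI and 3bKI therefore share no normalization and were not tested against each other, but both were set against the same wt and 3aKO arrays.

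Cholesterol is built from acetyl-CoA through mevalonate, farnesyl diphosphate, squalene and lanosterol, and the liver is a main site of this work. The transcription factor SREBP-2, encoded by Srebf2, drives most of the enzyme genes. When membranes hold much sterol, INSIG proteins keep SCAP and SREBP-2 in the endoplasmic reticulum; when sterol is scarce, SCAP carries SREBP-2 to the Golgi, where it is cleaved and released to the nucleus. Surplus cholesterol leaves the hepatocyte through ABCA1, which loads lipid onto apolipoprotein A-I, and through ABCG5 and ABCG8, which pump sterols into bile.

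A measure of array quality divided the arrays in step with the genotypes and bears on every knock-in comparison below. The mean of 18 hybridization control probe sets, which report added RNA and not liver RNA, was 11.0 to 11.8 in 1KI, 9.97 to 10.4 in 3aKO and 9.86 to 11.5 in wt, and 11.2 to 11.9 in 3bKI. All 1KI and 3bKI arrays and wt replicates 1 and 2 lay at the high level, while the other 10 wt arrays and all 3aKO arrays lay at the low level. Knock-in comparisons were therefore fitted again with this level as a block, which in effect sets the knock-ins against wt replicates 1 and 2. In 3bKI the poly-A controls averaged 13.8 ± 0.04, against 9.04 ± 0.39 in wt, and the 3' minus 5' signal of control genes averaged 0.31 ± 0.04, against 0.56 ± 0.05 in wt (SD). The poly-A controls were 13.77 to 13.85 in 3bKI, at most 9.7 in wt and at most 9.21 in 3aKO of that normalization. The 3' minus 5' signal was 0.275 to 0.36 in 3bKI, at least 0.475 in wt and at least 0.545 in 3aKO. Neither overlapped, so neither can be told apart from the 3bKI genotype. The level block and the 3' minus 5' covariate cannot separate them, also where a call in 3bKI is said below to hold. Genotype and the hybridization control level cannot be told apart in full. All arrays carried liver RNA, as 7 hepatocyte marker genes averaged 13.45 to 13.67 per array in 1KI, 13.30 to 13.55 in 3aKO and 13.31 to 13.57 in wt. In the second normalization these markers averaged 13.43 to 13.58 in 3bKI and 13.28 to 13.54 in wt. The brighter of the E2f3 probe sets averaged 7.75 ± 0.15 in 3aKO and 8.00 ± 0.18 in wt (SD, n = 10 and 12), with overlap; the labels do not say whether it lies in the deleted part. In whole liver, fewer cells of a type and less RNA per cell cannot be told apart.

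The enzymes of cholesterol synthesis varied widely between arrays of 1 genotype, and they moved together. The median standard deviation within genotypes was 0.37 on the log2 scale over the 18 synthesis enzymes, 0.17 over the 7 uptake, transport and export genes and 0.15 over all 18194 genes of the first normalization. Squalene epoxidase (Sqle), which oxidizes squalene in a step that controls the rate of the pathway, had an SD of 0.57, larger than that of 99% of genes. At the other end, Abca1 had an SD of 0.10, at the 6.05th percentile.

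In 12 of the 32 arrays of the first normalization at least 15 of the 18 enzymes lay above the mean of their own genotype, and in 10 arrays at most 3 did. All 18 lay above it in 3aKO replicates 1 and 3, and 17 in 1KI replicates 8 and 10 and in wt replicates 3, 4 and 6. None did so in 1KI replicate 7 or in wt replicates 2 and 10, and 1 did in 3aKO replicate 2 and in wt replicate 9. The mean of the enzymes relative to wt ran from -0.39 to 0.57 in 1KI, from -0.48 to 0.42 in 3aKO and from -0.42 to 0.68 in wt, and in the second normalization from -0.30 to 0.41 in 3bKI. Each genotype thus held arrays whose enzyme mean lay above that of wt and arrays whose enzyme mean lay below it.

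**Figure D1:**
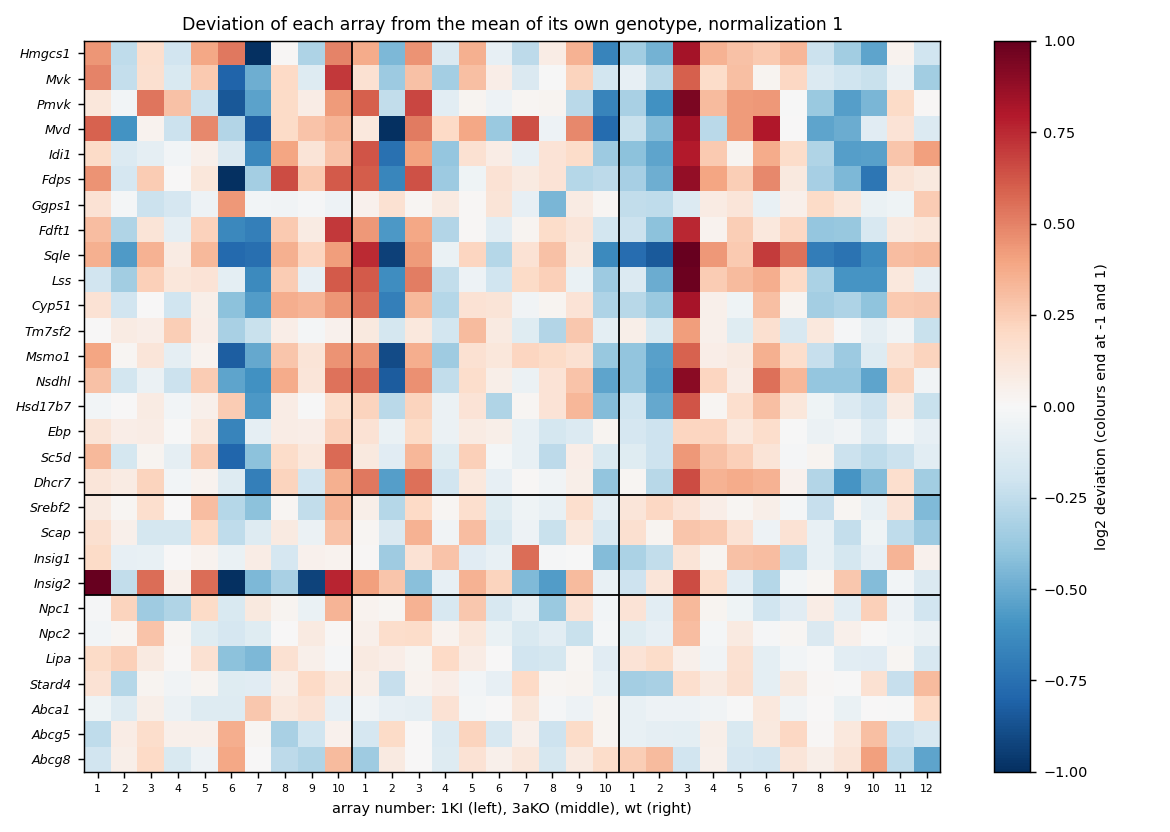
Deviation of each array from the mean of its own genotype, in log2 units, for the 29 genes (rows, synthesis enzymes above the first line, regulators next, uptake, transport and export genes below) in the 32 arrays of the first normalization (columns; 1KI, 3aKO and wt). Whole columns of synthesis enzymes are red or blue together, as in 1KI replicate 7, 3aKO replicate 2 and wt replicate 3, while the 7 lowest rows are paler.

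Each enzyme was set against the mean of the other synthesis enzymes, after the mean of its genotype was removed, over these 32 arrays. Pearson's r was at least 0.6 for 16 of the 18 enzymes, with a median of 0.85. Of the 18176 genes outside synthesis 63 (0.347%) reached 0.6 against the mean of the 18, and their median was -0.05. The highest values were those of Nsdhl, which removes the C4 methyl groups of the sterol (r = 0.97, Spearman's rho = 0.94), Fdft1, the squalene synthase (0.94 and 0.92), and Sqle (0.93 and 0.92), and each stayed above 0.9 without the 2 arrays farthest from the median. The exceptions were Ggps1, which makes geranylgeranyl diphosphate on a side branch (r = -0.18, rho = -0.15), and Tm7sf2, a sterol C14 reductase (0.56 and 0.50). These correlations describe arrays that share RNA handling and hybridization as well as biology, and they carry no test.

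The regulators followed the enzymes less closely, with r between 0.39 and 0.57, and Stard4, a sterol carrier of the cytosol, reached 0.50. The export pair had negative values, where the median of the 18176 genes outside synthesis was -0.05. How many of those genes had values as negative was not counted. Against the mean of the 18 enzymes Abcg8 had r = -0.46 (rho = -0.46, and -0.47 without the 2 farthest arrays) and Abcg5 r = -0.32 (rho = -0.26, and -0.32 without them). In the second normalization, which shares 22 arrays with the first, the values were -0.53 for Abcg8 and -0.34 for Abcg5.

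Among wt arrays the state of the pathway went with Xist, the RNA made from the inactive X chromosome of females. The index of Xist minus Y-linked genes split the arrays of both normalizations into a set at 8.38 or more and a set at 0.43 or less. The 5 wt arrays with high Xist had enzyme means of 0.13 to 0.68 and the other 7 wt arrays -0.42 to 0.10, with no overlap. In 3aKO the 5 arrays with high Xist ranged from -0.48 to 0.42 and the other 5 from -0.32 to 0.15, and in 1KI they ranged from -0.0068 to 0.40 and from -0.39 to 0.57. This split was made after the values were seen and was not tested; wt replicates 1 and 2, the wt arrays at the high hybridization control level, both belong to the set with low Xist.

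Promoters of the enzyme genes Hmgcs1, Idi1 and Mvk are shown with those of the regulators Srebf2 and Insig2 and of Abca1. Abca1 is the export gene called against wt in both knock-ins, narrowly in 1KI. The pathway is known for shared control from short elements near the start site. The enzymes shown were not those that moved together most. Their r was 0.76 for Hmgcs1, 0.91 for Idi1 and 0.83 for Mvk. Nsdhl (0.97), Cyp51 (0.92) and Msmo1 (0.91) had windows that are not shown. Nor are those of Insig1 and Scap. They run from 250 bases before the start of transcription to 50 after it, from RefSeq on GRCm38.p6, and 24 of the 29 genes had such a window (31 windows in all); Fdps, Fdft1, Sqle, Npc1 and Stard4 had none. The motifs searched on both strands, in capitals, were the sterol regulatory element TCACNCCAC, the NF-Y box CCAAT, and the E2F sites TTTCCCGC, TTTCGCGC, TTTGCCGC and TTTGGCGC.
Hmgcs1, chr13:119690101-119690400 (+ strand): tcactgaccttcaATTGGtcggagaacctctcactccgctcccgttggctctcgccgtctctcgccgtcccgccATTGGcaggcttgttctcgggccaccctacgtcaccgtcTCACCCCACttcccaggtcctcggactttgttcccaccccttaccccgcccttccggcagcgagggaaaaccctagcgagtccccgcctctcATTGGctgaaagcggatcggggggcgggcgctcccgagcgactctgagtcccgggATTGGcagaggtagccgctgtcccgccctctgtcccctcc
Idi1, chr13:8885356-8885655 (+ strand): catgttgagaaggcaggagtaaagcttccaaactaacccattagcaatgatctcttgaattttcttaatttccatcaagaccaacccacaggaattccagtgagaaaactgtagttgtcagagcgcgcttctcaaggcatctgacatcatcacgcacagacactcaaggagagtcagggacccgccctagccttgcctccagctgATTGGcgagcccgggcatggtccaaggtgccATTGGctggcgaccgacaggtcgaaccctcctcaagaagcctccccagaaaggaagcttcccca
Mvk, chr5:114444019-114444318 (+ strand): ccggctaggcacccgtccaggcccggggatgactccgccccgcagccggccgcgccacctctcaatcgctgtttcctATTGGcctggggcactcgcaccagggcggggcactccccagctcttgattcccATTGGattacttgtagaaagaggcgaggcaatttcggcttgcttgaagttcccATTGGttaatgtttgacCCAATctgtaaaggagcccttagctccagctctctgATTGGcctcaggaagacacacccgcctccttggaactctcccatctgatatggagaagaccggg
Srebf2, chr15:82147019-82147318 (+ strand): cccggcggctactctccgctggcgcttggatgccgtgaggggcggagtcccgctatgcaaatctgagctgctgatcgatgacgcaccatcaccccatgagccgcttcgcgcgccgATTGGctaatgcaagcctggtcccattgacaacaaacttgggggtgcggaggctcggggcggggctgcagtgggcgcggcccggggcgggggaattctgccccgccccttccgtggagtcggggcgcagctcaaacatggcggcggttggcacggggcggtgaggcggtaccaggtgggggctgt
Insig2, chr1:121332540-121332839 (- strand): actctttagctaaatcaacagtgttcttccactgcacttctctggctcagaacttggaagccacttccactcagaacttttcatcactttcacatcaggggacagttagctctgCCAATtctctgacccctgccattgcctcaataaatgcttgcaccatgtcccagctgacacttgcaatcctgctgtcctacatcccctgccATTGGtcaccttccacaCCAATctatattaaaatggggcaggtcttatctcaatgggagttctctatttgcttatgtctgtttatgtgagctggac
Abca1, chr4:53159846-53160145 (- strand): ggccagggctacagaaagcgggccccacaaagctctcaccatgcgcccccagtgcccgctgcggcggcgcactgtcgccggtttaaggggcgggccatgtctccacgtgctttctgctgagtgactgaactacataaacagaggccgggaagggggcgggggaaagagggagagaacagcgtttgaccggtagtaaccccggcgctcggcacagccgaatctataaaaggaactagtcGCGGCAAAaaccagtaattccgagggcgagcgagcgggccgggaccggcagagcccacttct
In these windows, shown 5' to 3' on the strand of the gene, no motif overlaps another, and ATTGG marks CCAAT on the opposite strand. Hmgcs1 held 4 CCAAT boxes and the one sterol regulatory element found in the windows of the 24 genes. That element was in 1 of their 31 windows (3.23%), against 1.24% of all 32851 windows. All 15 synthesis genes with a window had CCAAT in at least 1 window, as did 3 of 4 regulators and 4 of 5 uptake, transport and export genes, against 41.1% of all genes with a window. The printed window of Mvk held 5, that of Idi1 2 and that of Srebf2 1. Among windows not shown, that of Nsdhl held 4, that of Msmo1 3, those of Cyp51, Lss, Sc5d and Insig1 1 each, and those of Scap 0. Of the 3 windows of Insig2, the one farthest upstream is shown, with 3 boxes; the other windows of Insig2 held 0. A match to the E2F letters was found in 1 of the 31 windows (3.23%), that of Abca1, at position -12 from the start, against 2.26% of all windows. Abca1 held no CCAAT. Such matches describe letters in these windows and say nothing of whether a factor binds there. Only exact letters were counted, so a window without a match may still hold a variant of the element.

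The first test between genotypes asked whether synthesis enzymes differed in the E2F1 knock-in. Against wt, 7 of the 29 genes were called in 1KI, with limma and an adjusted p below 0.05 by Benjamini-Hochberg over 18194 genes. This share was close to that of all genes, of which 27.6% were called, and splits into 5 genes higher (10.2% of all genes) and 2 lower (17.5%). Of the 18 enzymes 3 were called, all higher, and the median change was 0.14 with 12 of 18 positive, against a median of -0.05 over all genes. The 15 that did not pass had log2 changes of -0.17 to 0.45. Single arrays moved these summaries: without 1KI replicate 7 there were 5 calls and a median of 0.23, without wt replicate 3 there were 5 and 0.22, and the median was 0.09 without 1KI replicate 10 or wt replicate 2.

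Idi1, the isomerase that turns isopentenyl into dimethylallyl diphosphate, ranged from 11.83 through a median of 12.49 to 12.87 in 1KI and from 11.47 through 12.13 to 12.81 in wt. The groups overlapped across most of their range, and 9 of 10 1KI arrays lay above the wt mean. The change was 0.46 ± 0.16 (SE, limma adjusted p = 0.028). The call was lost without wt replicate 2, 9 or 10 or without 1KI replicate 8 (0.41 to 0.42), and without wt replicates 1 and 2 together (0.37). It was also lost with the mean of all probe sets of the gene, and with the Xist index beside the hybridization control level.

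Dhcr7, which makes cholesterol from 7-dehydrocholesterol, ran from 10.32 through 11.06 to 11.36 in 1KI and from 9.98 through 10.60 to 11.22 in wt, and it rose by 0.43 ± 0.14 (limma adjusted p = 0.021). Tm7sf2 ran from 11.42 through 11.80 to 11.99 in 1KI and from 11.23 through 11.43 to 11.87 in wt, and it rose by 0.29 ± 0.08 (limma adjusted p = 0.0037). In both genes 9 of 10 1KI arrays lay above the wt mean. Against 3aKO both were also called, at 0.46 ± 0.15 for Dhcr7 and 0.41 ± 0.08 for Tm7sf2, while Idi1 (0.39, adjusted p = 0.068) was not.

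These values and calls changed with the hybridization control level. With it as a block, the median change of the 18 enzymes was 0.53 with 17 positive. Only Idi1 passed (0.93, limma adjusted p = 0.046), while Dhcr7 (0.56 ± 0.26) and Tm7sf2 (0.34 ± 0.14) did not. The changes of Dhcr7 and Tm7sf2 were no smaller than without the block, but their standard errors were larger (0.14 and 0.08 without it). The same fit called 4.3% of all genes, in place of 27.6%. With the Xist index beside the level, a fit chosen after the data were seen, 0 enzymes were called, beside 3.69% of all genes. The wt arrays of the high level were low in the pathway: 2 of 18 enzymes lay above the wt mean in wt replicate 1 and 0 in wt replicate 2. Without both arrays, a comparison added after the data were seen, the median change was 0.05 with 9 of 18 positive.

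In the E2f3b knock-in 7 of the 29 genes were called against wt, beside 29.2% of all genes, with 3 higher (13.4% of all genes) and 4 lower (15.9%). Of the enzymes only Mvk, the mevalonate kinase, passed. Mvk had 9.02, 9.03, 9.43, 9.51 and 9.45 in 3bKI, and 8.54 to 9.48 with a median of 8.81 in wt. Its change was 0.41 ± 0.13 (limma adjusted p = 0.020), and the call was lost without 3bKI replicate 3, 4 or 5 (0.35 to 0.37) and with the level block (0.59, adjusted p = 0.077). The median change of the 18 enzymes was 0.04, with 11 positive, and the 17 enzymes that did not pass lay between -0.35 and 0.73. The largest of these, that of Mvd, the mevalonate diphosphate decarboxylase, rested on 3bKI replicates 3 and 5 at 9.51 and 9.35, with the other arrays at 7.69 to 7.93; it did not pass (0.73 ± 0.29, adjusted p = 0.062). With the block the median was 0.34 and all 18 were positive, with none called, beside 8.7% of all genes. Without wt replicates 1 and 2 the median was -0.02 with 8 positive. With the 3' minus 5' signal as a covariate, 1 of the 7 calls in 3bKI held, that of Abca1, and the same fit called 3.33% of all genes.

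**Figure D2:**
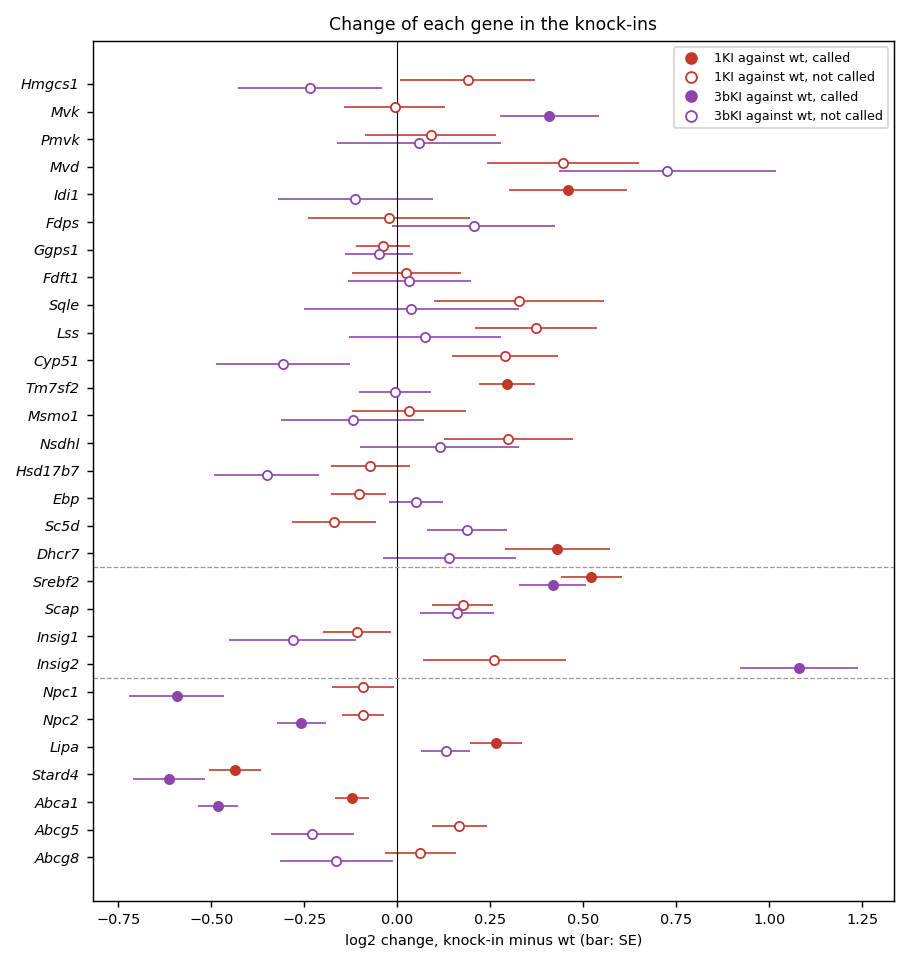
Log2 change of each of the 29 genes in 1KI (red) and 3bKI (purple) against wt, with standard errors; filled points were called at an adjusted p below 0.05. Synthesis enzymes above the first dashed line scatter around 0, Srebf2 is higher in both knock-ins, Insig2 is higher in 3bKI, and Stard4, Npc1 and Abca1 are lowest in 3bKI.

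Among the regulators, Srebf2 was higher in both knock-ins. In 1KI it ran from 9.13 through a median of 9.56 to 9.88, against 8.58, 9.06 and 9.23 in wt, so that all 10 1KI arrays lay above the wt mean and 9 of them above every wt array. The change was 0.52 ± 0.08 (limma adjusted p = 1.18e-05), a fold of 1.44, and 0.54 ± 0.09 against 3aKO. In 3bKI the values were 9.47, 9.13, 9.58, 9.51 and 9.58, against 8.59 to 9.21 in wt with a median of 9.09, and only replicate 2 overlapped wt. The change was 0.42 ± 0.09 (adjusted p = 5.82e-04). A second probe set of Srebf2 was higher by 0.65 in 1KI and 0.37 in 3bKI. With the level block the changes were 0.36 and 0.29 and neither was called (adjusted p = 0.17 and 0.21).

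Insig2, one of the proteins that hold SCAP back, was the gene of the list that rose most in 3bKI. It had 12.88, 12.20, 12.39, 12.29 and 12.58 there, against 10.95 to 12.06 in wt with a median of 11.34, without overlap. The change was 1.08 ± 0.16 (limma adjusted p = 5.68e-06), a fold of 2.11, and 0.91 ± 0.16 against 3aKO, again without overlap. All 3 probe sets of Insig2 were higher, by 0.64 to 1.08, and the call held with the level block (1.13, adjusted p = 0.0061). With the 3' minus 5' signal as a covariate the change was 0.87 and not called (adjusted p = 0.13). In 1KI Insig2 spread from 10.59 to 12.66 around a median of 11.52, wider than wt at 10.92 to 12.01, and the change of 0.26 ± 0.19 did not pass.

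Insig1, which SREBP-2 itself induces in a feedback loop, and Scap were not called. Insig1 averaged 11.18 ± 0.10 in 1KI and 11.28 ± 0.23 in wt, and 10.96 ± 0.60 in 3bKI and 11.24 ± 0.24 in wt (SD), with log2 changes of -0.11 and -0.28. Scap had changes of 0.18 in 1KI and 0.16 in 3bKI (adjusted p = 0.11 and 0.25). Srebf2, Scap and Insig2 thus had positive changes in both knock-ins and Insig1 negative ones, of which the tests passed Srebf2 in both and Insig2 in 3bKI.

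**Figure D3:**
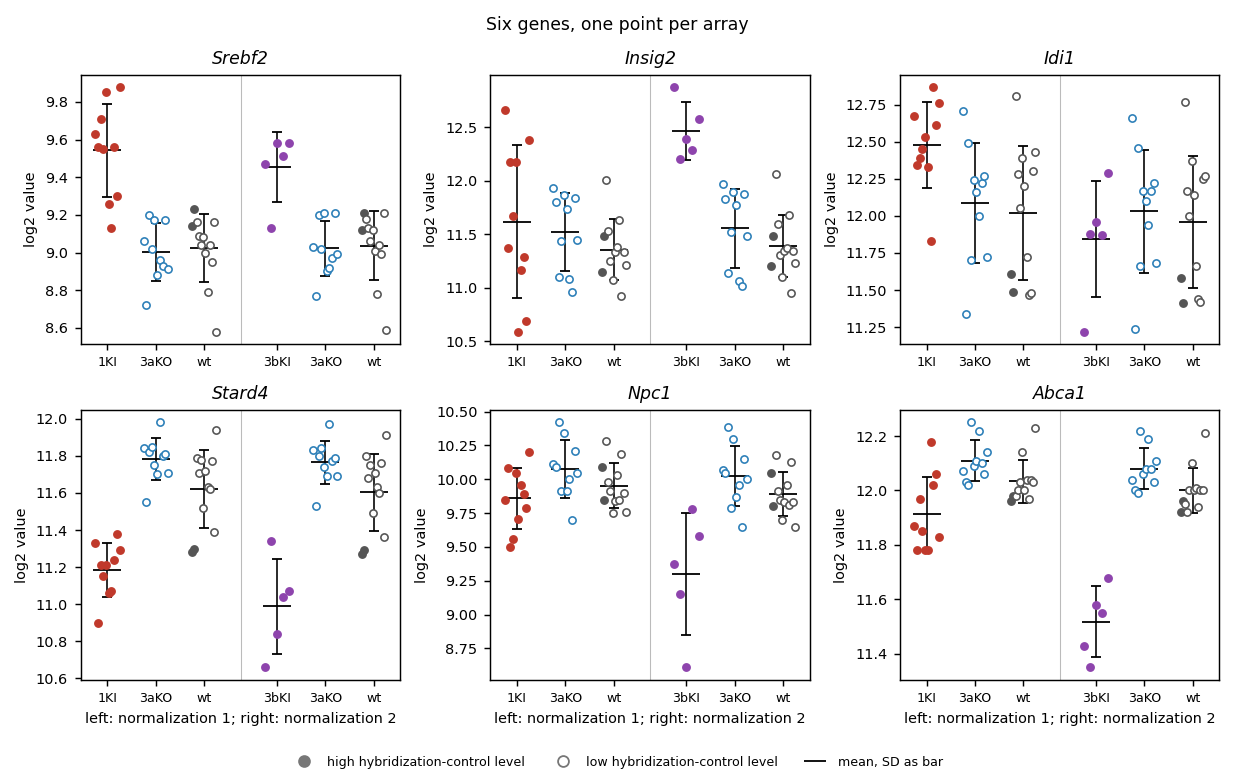
Log2 values of Srebf2, Insig2, Idi1, Stard4, Npc1 and Abca1, one point per array, with group means and SD bars; filled points are arrays at the high hybridization control level. Insig2 and Abca1 of 3bKI lie apart from all wt arrays, and the 2 filled wt points lie low in Stard4 and Idi1.

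Of the 4 genes that free cholesterol in lysosomes or move it inside the cell, Stard4 was lower in both knock-ins. None of the 4 encodes a receptor of the cell surface. STARD4 carries cholesterol between membranes through the cytosol, and its gene is a target of SREBP-2. In 1KI it ran from 10.90 through a median of 11.21 to 11.38, against 11.28, 11.67 and 11.94 in wt, and all 10 1KI arrays lay below the wt mean. It fell by 0.44 ± 0.07 on the log2 scale (limma adjusted p = 1.45e-05), and against 3aKO, at 11.55 to 11.98, by 0.60 ± 0.07 without overlap.

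In 3bKI Stard4 had 10.66, 11.34, 10.84, 11.04 and 11.07, against 11.27 to 11.91 in wt with a median of 11.66, and only replicate 2 overlapped wt. The change was -0.61 ± 0.10 (adjusted p = 1.52e-05), a level 0.653 times that of wt. All 3 probe sets had negative changes in both knock-ins, of -0.23 to -0.67 in 1KI and -0.25 to -0.61 in 3bKI. The lowest wt values were the 2 at the high control level, 11.28 and 11.30, and with the level as a block the changes were -0.11 in 1KI and -0.29 in 3bKI, neither called (adjusted p = 0.62 and 0.19).

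Npc1 and Npc2 hand cholesterol from the lumen of late endosomes and lysosomes to the membrane. Npc1 had 9.37, 9.15, 8.61, 9.78 and 9.58 in 3bKI, against 9.65 to 10.18 in wt with a median of 9.84, and 1 array of 3bKI overlapped wt. The change was -0.59 ± 0.13 (limma adjusted p = 6.3e-04), and with the level block -0.63 (adjusted p = 0.053). Npc2 had 11.83, 11.61, 11.72, 11.59 and 11.72 in 3bKI, against 11.82 to 12.25 in wt, where only replicate 1 of 3bKI reached the lowest wt value, and it changed by -0.26 ± 0.07 (adjusted p = 0.0036), or -0.16 with the block, where it was not called. Of the other 3 Npc2 probe sets, only 2 had negative changes in 3bKI, -0.25 and -0.07, and the call of Npc2 was lost with the mean of all its probe sets. In 1KI neither gene was called, both with changes of -0.09.

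Lipa, the lysosomal acid lipase that frees cholesterol from its esters, was higher in 1KI. It ran from 11.40 through 11.92 to 12.09 in 1KI and from 11.43 through 11.57 to 11.77 in wt, with 8 of 10 1KI arrays above the wt mean, and rose by 0.26 ± 0.07 (limma adjusted p = 0.0047). In 3bKI the change of 0.13 ± 0.07 did not pass. With the level block the changes were 0.11 in 1KI, where the call was lost (adjusted p = 0.68), and -0.05 in 3bKI.

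The probe sets of Lipa disagreed in size, which was seen after their values were examined. The chosen probe set and the next brightest changed by 0.26 and 0.22 in 1KI against wt and by 0.13 and 0.26 in 3bKI against wt. The dimmest ran from 8.31 to 11.26 in 1KI, against 6.31 to 7.00 in 3aKO and 6.69 to 7.19 in wt. It had 7.34, 10.76, 7.59, 10.17 and 11.60 in 3bKI, against 6.51 to 7.11 in wt. Every knock-in array thus lay above every wt array, and 2 of the 5 3bKI arrays stood close to wt. Those 2, replicates 1 and 3, were the 3bKI arrays with high Xist (index 9.36 in both). That split by Xist was seen after the values and was not tested. The group mean differed from that of wt by 3.53 ± 0.22 in 1KI and 2.73 ± 0.39 in 3bKI (SE). The high-level wt replicates 1 and 2 had 6.81 and 7.19, within the range of the other wt arrays.

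**Figure D4:**
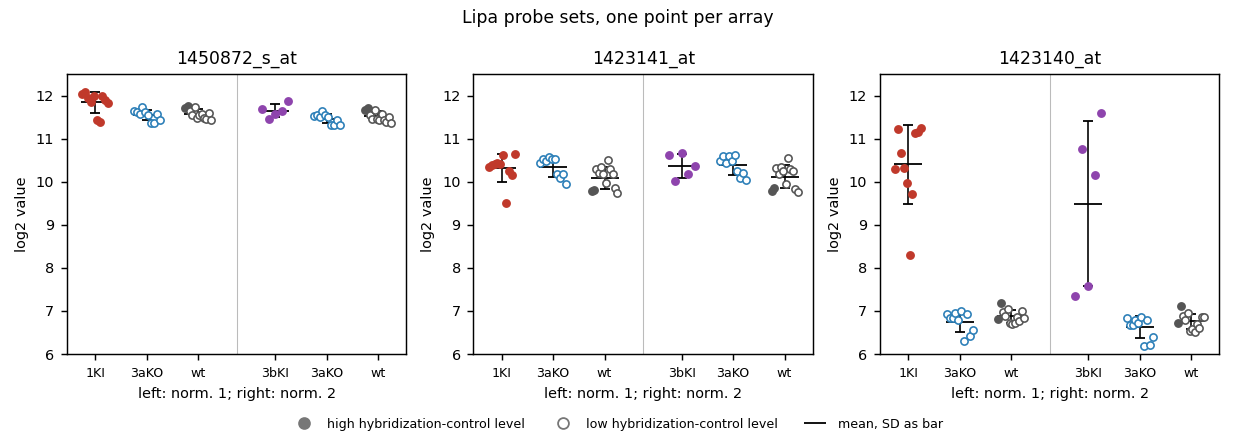
Log2 values of the 3 Lipa probe sets, one point per array, with group means and SD bars; filled points are arrays at the high hybridization control level. The dimmest probe set, on the right, is at 8.31 or more in all 1KI arrays, falls into 7.34 and 7.59 against 10.17 to 11.60 among 3bKI arrays, and stays at 7.19 or less in wt.

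Of the export genes, Abca1 was called lower against wt in both knock-ins, narrowly in 1KI and with the larger change in 3bKI. It had 11.43, 11.35, 11.58, 11.55 and 11.68 in 3bKI, against 11.92 to 12.21 in wt with a median of 12.00 and 11.99 to 12.22 in 3aKO, without overlap with either. The change was -0.48 ± 0.05 against wt (limma adjusted p = 9.32e-08), a level 0.716 times that of wt, and -0.56 ± 0.06 against 3aKO. The call held with the level block (-0.42, adjusted p = 0.0023) and with the 3' minus 5' signal as a covariate (-0.47, adjusted p = 0.015), but not among arrays of the high level alone (-0.42, adjusted p = 0.13). The other 2 probe sets of Abca1 had changes of -0.16 and -0.10 that did not pass. Against 3aKO the call in 3bKI was lost with the mean of all probe sets of the gene.

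In 1KI Abca1 ran from 11.78 through 11.86 to 12.18, against 11.96, 12.02 and 12.23 in wt, and the change of -0.12 ± 0.05 passed narrowly (adjusted p = 0.048). The call was lost in 13 of 22 fits that left out 1 array and with the level block (-0.06). Of 15 other alternatives, that block among them, 5 kept it. Losses also came with the mean of all probe sets, and with the Xist index or the 3' minus 5' signal as a covariate. Abcg5 and Abcg8 were not called in either knock-in against wt. Their log2 changes were 0.17 and 0.06 in 1KI and -0.23 and -0.16 in 3bKI, where replicates 3 and 5 were lowest in both genes (10.77 and 11.11 for Abcg5, 8.82 and 9.20 for Abcg8).

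Synthesis was then set side by side with uptake, transport and export. The 7 genes of that set include no uptake receptor of the cell surface. Such a receptor, Scarb1, belongs to a further list given below. In 1KI the median log2 change was 0.14 over the 18 enzymes and -0.09 over the 7 uptake, transport and export genes, beside -0.05 over all genes. In 3bKI it was 0.04 over the enzymes and -0.26 over the 7 genes, beside 0.00 over all genes, and 6 of the 7 had negative changes. The mean of the 7 genes lay between -0.62 and -0.13 relative to wt in 3bKI, below every wt array (-0.12 to 0.14) and every 3aKO array (-0.10 to 0.16) of that normalization. It lay between -0.10 and 0.07 in 1KI and between -0.11 and 0.14 in wt, with overlap. With the level block the median of the 7 genes was -0.06 in 1KI and -0.29 in 3bKI. The median of the enzymes in 3bKI had no stable sign: it was -0.0052 with equal array medians, -0.03 with the replicate block, -0.04 without 3bKI replicate 5, -0.0025 without wt replicate 2 and -0.02 without wt replicates 1 and 2.

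**Figure D5:**
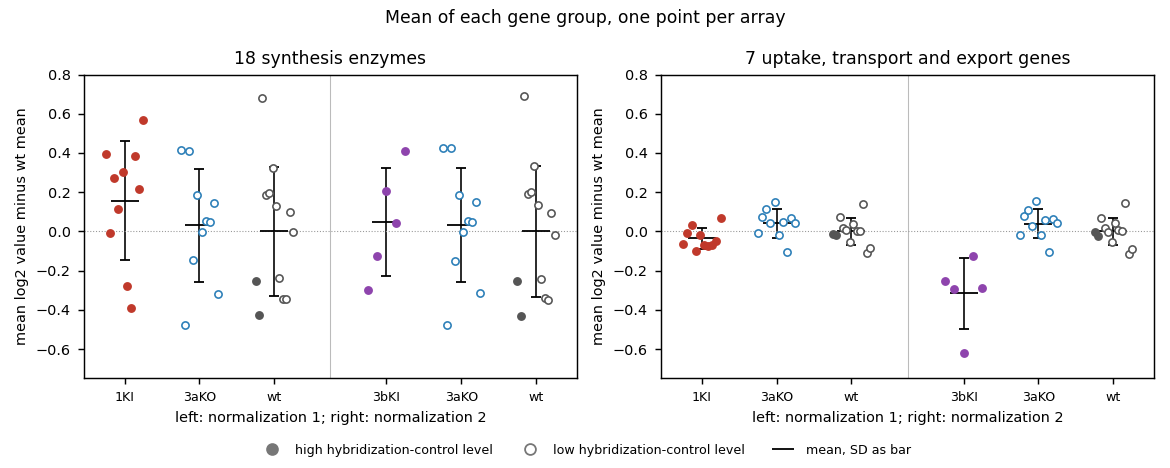
Mean log2 value of the 18 synthesis enzymes (left) and of the 7 uptake, transport and export genes (right), each minus the wt mean of its gene, one point per array with group means and SD bars; filled points are arrays at the high hybridization control level. Enzyme means overlap between all genotypes, while the 5 3bKI arrays lie between -0.62 and -0.13 on the right, below all others.

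Against 3aKO the knock-ins gave a similar list, with the same knock-in arrays in the comparison. In 1KI 7 of the 29 genes were called, 4 higher and 3 lower, beside 31% of all genes (11.9% higher and 19% lower). Besides the genes given above, Hsd17b7, a sterol ketone reductase, was lower, at 10.00 to 10.83 in 1KI and 10.44 to 11.20 in 3aKO (-0.29 ± 0.11, limma adjusted p = 0.042). That call was lost in 11 of 20 fits without 1 array. In 3bKI 10 were called, 4 higher and 6 lower, beside 34.2% of all genes (16.5% higher and 17.7% lower). Hsd17b7 had 9.77, 10.17, 10.17, 10.50 and 10.62 there, against 10.40 to 11.13 in 3aKO (-0.57 ± 0.15, adjusted p = 0.0028), and Npc1 changed by -0.73 ± 0.13. Abcg5 changed by -0.30 ± 0.12, a call lost in 9 of 15 fits without 1 array (-0.16 without 3bKI replicate 3), and Lipa by 0.18 ± 0.07, lost in 7 of 15. No hybridization control level holds both knock-in and 3aKO arrays. With it as a block 0 calls held in 1KI, beside 2.29% of all genes called. In 3bKI 3 held, those of Insig2 (0.97), Abca1 (-0.49) and Npc1 (-0.77), beside 6.77% of all genes.

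The E2f3a knock-out alone moved none of these genes past the test. Against wt 0 of 29 were called with limma, beside 0.176% of all genes, and 2 had an unadjusted p below 0.05, beside 2166 of 18194 genes. These were Stard4, at 11.55 to 11.98 in 3aKO and 11.28 to 11.94 in wt (0.16 ± 0.07, unadjusted p = 0.027), and Hsd17b7, at 10.44 to 11.20 in 3aKO and 10.14 to 11.28 in wt (0.22 ± 0.11, unadjusted p = 0.045). The log2 changes of all 29 lay between -0.22 and 0.24, with medians of 0.06 over the enzymes and 0.07 over the 7 uptake, transport and export genes. In simulated data of this comparison 93.9% of changes of 0.5 were recovered, over changed genes drawn from all 18194. The enzymes spread more within genotypes (median SD 0.37) than all genes did (0.15), and recovery was not measured for them alone. Differences of 0.5 or smaller in the enzymes may therefore not be detectable here.

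Other genes of sterol handling were taken from 4 further lists, with 29 of 32 found. Their counts stand beside 10.2% of all genes called higher and 17.5% called lower in 1KI against wt, and 13.4% higher and 15.9% lower in 3bKI against wt. The list of SREBP processing and sterol sensing had 8 of 9 genes found, and 5 were lower and 0 higher in each knock-in against wt. In 1KI these included Erlin2 (-0.22 ± 0.04, limma adjusted p = 1.92e-04), which helps degrade sterol-regulated proteins in the endoplasmic reticulum, and Rnf139 (-0.24 ± 0.06), a sterol-sensing ubiquitin ligase. In 3bKI they included Rnf145 (-0.85 ± 0.13, adjusted p = 9.94e-06), another ubiquitin ligase of that membrane, Mbtps2 (-0.43 ± 0.07), a protease that cleaves SREBPs, and Erlin2 (-0.25 ± 0.05), of which Rnf145 and Erlin2 did not overlap wt. With the level block the calls of Rnf145 (-0.68), Mbtps2 (-0.40) and Erlin2 (-0.27) in 3bKI held and none of the 5 in 1KI did. Of all genes that fit called 8.7% in 3bKI and 4.3% in 1KI.

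The list of LXR and lipoprotein cholesterol genes had 6 of 7 found, with 2 higher and 1 lower in 1KI and 3 higher and 0 lower in 3bKI. Scarb1, the receptor that takes cholesterol from high-density lipoprotein, rose by 0.49 ± 0.09 in 1KI and 0.56 ± 0.11 in 3bKI, but by 0.10 and 0.16 with the block, where it was not called. Of the isoprenoid branches, 7 of 8 found, 2 were higher and 1 lower in 1KI and 1 higher and 2 lower in 3bKI. Nus1, a subunit of the enzyme that makes dolichol chains, fell in 3bKI by 0.62 ± 0.08 (adjusted p = 7.77e-07) and by 0.57 with the block, where the call held. Of 8 sterol carriers, 1 was higher and 1 lower in 1KI, and 1 was higher and 2 lower in 3bKI, near the 27.6% and 29.2% of all genes called either way. Gramd1a, which moves cholesterol from the plasma membrane inward, rose in 1KI by 0.61 ± 0.10 (0.63 with the block, still called), and Stard5, a sterol-binding protein, fell in 3bKI by 0.52 ± 0.07 (0.46 with the block, still called). In 3aKO 0 of these 29 genes were called against wt, where limma called 0.176% of all genes.

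Markers of other liver cells were read beside these results, again beside 27.6% of all genes called in 1KI and 29.2% in 3bKI against wt. The mean of 10 macrophage and Kupffer cell markers ran from 8.75 to 10.3 in 1KI and from 9.20 to 9.58 in wt, and from 8.92 to 9.91 in 3bKI and from 9.14 to 9.54 in wt, with 0 of 10 called in 1KI and 1 of 10 in 3bKI (Cd5l, 0.54). Of 8 sinusoidal endothelial markers 1 was higher and 2 lower in 1KI, and 1 was higher in 3bKI. Of 6 stellate cell markers 1 was higher and 1 lower in 1KI and 1 higher and 2 lower in 3bKI, against wt in each case. Against 3aKO 4 of the 10 macrophage markers were lower in 1KI, beside 19% of all genes. The mean of 7 lymphocyte markers ran from 5.66 to 6.00 in 1KI and from 5.68 to 6.01 in wt. In the second normalization it ran from 5.82 to 6.08 in 3bKI and from 5.65 to 5.96 in wt. Against wt, 1 of the 7 was lower and 0 higher in 1KI, and 2 were higher and 0 lower in 3bKI. The part of these cell types in the results above was not tested.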

How the data were processed

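Per the labels' protocols, total RNA was extracted with Trizol, 5 ug was turned into biotin cRNA, and liver RNA was hybridized to Affymetrix arrays. The authors deposited log2 values. The labels and file headers used here name no normalization method, and the log base of the values is inferred from their range, 2.13 to 15.06. The 59 deposited columns hold 37 arrays, of which 22 appear in both normalizations. Arrays were grouped by the genotype in the labels. The number of arrays per group limits the precision.

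Of 45101 probe sets, 34958 carried 1 symbol, 932 several, 9147 none listed and 64 were controls; 34754 matched RefSeq (GRCm38.p6) by Entrez ID. For each of 18194 genes the probe set with the highest mean was kept. In R 4.3.3, limma 3.58.1 (lmFit, then eBayes) was fitted to the arrays of each normalization together, with Benjamini-Hochberg adjustment within each of 5 comparisons. Errors of log2 changes are limma's standard errors.

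The models were tested on simulated data with 200 changed genes of 18194 in 10 simulations: of changes of 0.5, 92.9% were recovered for 1KI and 87.5% for 3bKI, each against wt. The changed genes were drawn from all genes, so these shares were not measured for the more variable synthesis enzymes. The rule for naming genes was that every gene of the list found may be named, with values per array for those called with the largest changes. Of the further lists only called genes were named. The genes, lists and rules were chosen with earlier results of these data known. Alternatives changed the groups fitted, the probe sets, the scaling, the covariates or the arrays, 1 at a time, except for a fit with the hybridization control level and the Xist index together.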

Additional observations from a re-analysis of the deposited data

Results flagged for a closer look

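In 8 of 87 groups of values (29 genes in 1KI, 3aKO and 3bKI) 1 array lay far below the others by Dixon's criterion. For independent groups chance gives about 1 in 20. These groups share arrays and hold enzymes that move together, so their count cannot be set against that share. Of these, 4 were 1KI replicate 7, the array with 0 of 18 synthesis enzymes above the 1KI mean: Dhcr7 at 10.32, Hmgcs1 at 12.22, Hsd17b7 at 10.00 and Idi1 at 11.83, where the next 1KI arrays stood at 10.81, 13.19, 10.55 and 12.33. In 1KI replicate 6, whose 3' minus 5' signal of 1.75 was the highest of all arrays, Ebp was at 12.13 and Fdps at 10.48, with the next arrays at 12.70 and 11.97. Ggps1 was at 6.25 in 3aKO replicate 8 and Srebf2 at 9.13 in 3bKI replicate 2, with the next arrays at 6.63 and 9.47.

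The dimmest Lipa probe set, which stands for no gene in the comparisons, was higher in every knock-in array than in every wt array. The difference of means from wt was 3.53 in 1KI and 2.73 in 3bKI. The chosen Lipa probe set changed by 0.26 and 0.13.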

How the results depend on the processing

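In 3aKO against wt 0 genes of the list were called under every alternative run, with limma. For 1KI the called counts were 7 against wt and 7 against 3aKO, and for 3bKI 7 and 10. They depended most on the array controls. Blocking on the hybridization control level gave 1 and 0 for 1KI and 2 and 3 for 3bKI, while of all genes 4.3% and 2.29% were called for 1KI and 8.7% and 6.77% for 3bKI. Within the high level alone 1 was called in 1KI and 1 in 3bKI against wt, beside 0.956% and 0.731% of all genes. With the 3' minus 5' signal as a covariate 3bKI gave 1 against wt and 1 against 3aKO, beside 3.33% and 0.638% of all genes. With the level and the Xist index together, chosen after seeing the data, the counts were 0 and 0 for 1KI and 2 and 1 for 3bKI. That fit called 3.69% and 2.15% of all genes for 1KI and 8.15% and 6.95% for 3bKI. Without _x_at and _s_at probe sets 3bKI against wt gave 11, beside 28.9% of all genes. Leaving out 1 array at a time gave 0 for 3aKO, 6 to 9 for 1KI against wt or 3aKO alike, and for 3bKI 6 to 9 against wt and 7 to 10 against 3aKO. Of all genes, such fits called 24.9% to 28.3% in 1KI against wt and 28.1% to 31.6% against 3aKO. For 3bKI the shares were 26.7% to 29.6% and 31% to 34.7%. Equal array medians gave 4 higher and 5 lower in 1KI against 3aKO, in place of 4 and 3, beside 34.2% of all genes called. A further quantile normalization gave 6 higher and 1 lower in 1KI against wt, in place of 5 and 2, beside 30.1%. In 3bKI the mean of all probe sets gave 7 higher and 3 lower against wt and 8 and 5 against 3aKO. Those fits called 27.3% and 31.7% of all genes. Equal array medians moved the calls over all genes in 3bKI to 1742 higher and 3693 lower against wt, in place of 2433 and 2885.

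Values that turned were Lss without _s_at probe sets (-0.74 in 3bKI against wt, adjusted p = 0.018, and -0.69 against 3aKO), where another probe set stands for the gene, and likewise Lipa against 3aKO (-0.034 in 1KI and -0.007 in 3bKI). With the level block Hsd17b7 was 0.13 in 1KI against 3aKO and Lipa -0.028 in 3bKI against 3aKO, and with the Xist index as well 0.054 and -0.063. With the 3' minus 5' signal Hsd17b7 was 0.13 in 3bKI against 3aKO. The cause was not tested. Of 2141 values of single genes under alternatives, 1993 kept their side of the threshold with no called value turned, 176 of them changing sign without a call either way. A further 102 lost the call, 37 gained it and 9 called values turned.

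The replicate numbers do not pair arrays: same-numbered deviations correlated between -0.34 and 0.38, and at most 5 of 10 matched best with their own number. With the replicate block the counts were 0 for 3aKO, 6 and 7 for 1KI, and 7 and 9 for 3bKI, against wt and 3aKO in that order. The shares of all genes were 0.0769% for 3aKO, 25.4% and 31.3% for 1KI, and 23.5% and 33.5% for 3bKI.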
